A study of Rattus norvegicus with 232 samples.

Results

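The genes described here are the rows of the RefSeq gene table whose symbol starts with Slc25a, 45 of the 20859 genes of that table. They were taken by symbol, with earlier results of these data known, and the 3 listed relatives Slc25a31, Slc25a41 and Slc25a51 have no row there. The levels came from stranded sequencing of rRNA-depleted total RNA from brains of untreated rats of the Hybrid Rat Diversity Panel, a collection of inbred strains. This gene table held 214 libraries, averaged to 197 animals of 74 strains, of which 54 strains had 3 animals, 15 had 2 and 5 had 1. The strains fell into the HXB/BXH recombinant inbred family (30 strains, 88 animals), bred from SHR/OlaIpcv and BN-Lx/Cub, the FXLE/LEXF recombinant inbred family (19 strains, 43 animals), bred from F344/Stm and LE/Stm, and a group of classic inbred strains including these progenitors (25 strains, 66 animals). A recombinant inbred strain is a fixed mosaic of the genomes of its progenitors, so that all of its animals are near-identical in genotype. All of the groups were untreated, none carried a transgene, and they differed by strain. The labels gave the sex as male for 135 of the 213 libraries matched to a single sample and gave none for the others. For the strains in the study's report the methods describe adult males and brains cut sagittally. Brains of the HXB/BXH family and its progenitors came from a colony in Prague and were shipped in liquid nitrogen. The other inbred strains of that report came from commercial suppliers, and their brains were put in RNAlater. Between these sets of strains, source and storage cannot be told apart from strain.

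The Slc25 family, the mitochondrial carriers, moves nucleotides, phosphate, amino acids, carboxylates, cofactors and metals across the inner mitochondrial membrane. They are encoded by nuclear genes and imported after translation, and most exchange a solute of the cytosol for a solute of the matrix. In brain they are known for the export of ATP, for the malate-aspartate shuttle that carries reducing equivalents into neuronal mitochondria, and for the entry of glutamate into the matrix.

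The values used here were read as log2-scale levels from their range, since how the v7.1 tables were made is not given in the sources used here. The gene table held 5 values over 30, up to 36.9, none of them in a member, and the matching transcript table held 21, up to 64.7. Such values are too high for plain log2 counts, and every fold below rests on the log2 reading. The values are not counts, so the depth of each library is unknown and a difference of 1 corresponds to a doubling on that scale. Markers of neurons, astrocytes and oligodendrocytes were high in every library, with the mean of each list at 13.05 or above. In 4 libraries, from BXH6/Cub animal 3, HXB10/Ipcv animal 1, LE/Stm animal 2 and SHR/OlaIpcv animal 1, the mean of 7 liver genes lay between 12.93 and 18.35, against at most 11.20 in the others. In 4 further libraries, the 3 of LEW/Crl and HXB17/Ipcv animal 2, the mean of 3 Y-linked genes was 9.06 to 9.46, against at least 9.94 elsewhere. Counts of strain effects over genes and differences from SHR/OlaIpcv are given with and without these libraries.

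The carriers spanned nearly the whole range of expressed genes. The mean level was highest for Slc25a4, the adenine nucleotide translocase of excitable tissues, at 13.88 ± 0.12 (SD, n = 197 animals), followed by the phosphate carrier Slc25a3 at 13.72 ± 0.11. Slc25a5, also an adenine nucleotide translocase, followed at 13.07 ± 0.09. The aspartate-glutamate carrier Slc25a12 (aralar) was at 12.13 ± 0.10. The pyrimidine nucleotide carrier Slc25a36 at 12 ± 0.16 and the ATP-Mg/phosphate carrier Slc25a23 at 12 ± 0.19 came next and differed by less than their spread.

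At the other end, Slc25a47, known as a carrier of liver, was at 1.55 ± 0.25 (SD, n = 197 animals). The NAD carrier Slc25a52 was at 3.53 ± 0.22 and the oxoadipate carrier Slc25a21 at 3.78 ± 0.19. Slc25a43 and Slc25a45, both of which are little characterised, were at 4.52 ± 0.23 and 5.12 ± 0.19. The median level of the 45 members was 9.28.

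These levels are not divided by gene length. Per kilobase of exonic length, which was available for 41 members from the deposited transcriptome reconstruction, Slc25a4 was still highest at 12.92 and Slc25a5 next at 11.78. Slc25a23 (10.70), the glutamate carrier Slc25a22 (10.40) and Slc25a12 (10.26) came next on the same per-kilobase log2 scale. Slc25a3 had no length there and is not placed in this order.

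Levels differed little between strains for most members. The highest strain mean was 1.43 times the lowest in the median member, taking strains with 2 or more animals, and the ratio ran from 1.21 to 2.33. It exceeded 1.5 in 12 of the 45 members. The spread among the few animals of a strain adds to this ratio, and the ratio over all genes was not taken. The lowest and highest strains named below were picked by these same values, so their separation is no support for a strain effect. For Slc25a6, Slc25a17, Slc25a29, Slc25a37, Slc25a43, Slc25a45, Slc25a48 and Slc25a52 the lowest and highest strains shared no batch. Strain and batch cannot be told apart there. The SD among animals of 1 strain was 0.15 in the median member and 0.16 in the median gene of the table. It was smallest for Slc25a27, an uncoupling-protein-like carrier of brain, at 0.06, and largest for the scarce Slc25a47 at 0.25.

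**Figure D1:**
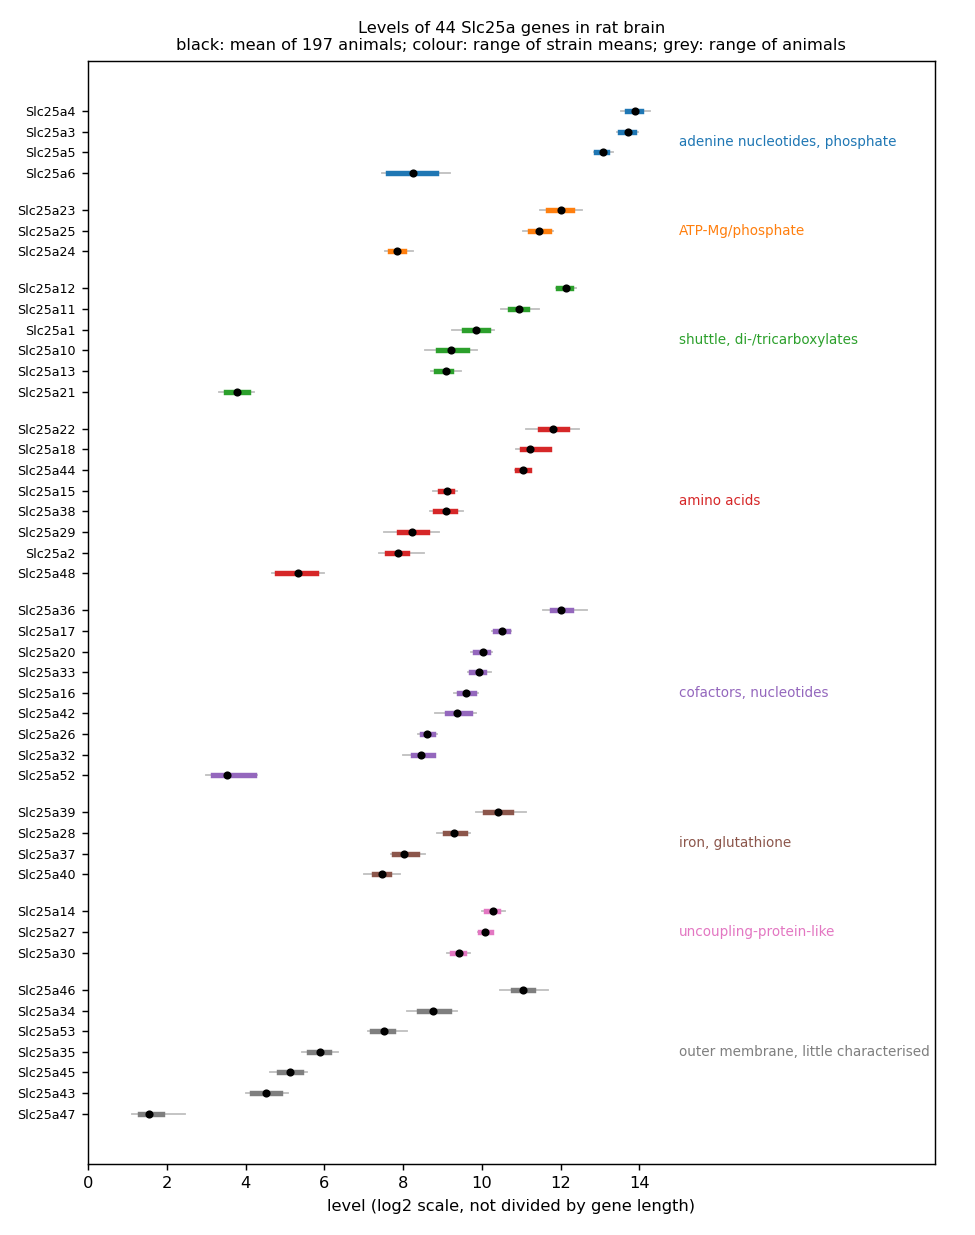
Mean level of 44 of the 45 Slc25a genes on the log2 scale, grouped by the substrates carried. Black points are means of 197 animals, coloured bars span the strain means of strains with 2 or more animals, and grey lines span the animals. Slc25a4 at 13.88 and Slc25a47 at 1.55 mark the ends, and the widest coloured bar is that of Slc25a6.

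The next question was how much of the variance of each carrier lay between strains. R2, the between-strain share of the total sum of squares, had a median of 0.45 over the members and 0.45 over all genes. Strain effects passed a false discovery rate of 5% in limma's moderated F-test, adjusted over all genes, for 14 of the 45 members (31.1%), against 37.3% of all genes, and for 12 members without the libraries that stand apart, against 34.5% of all genes in that fit. Within HXB/BXH they passed for 7 members (15.6%) against 19.1% of all genes, and for 7 without those libraries, against 17.2%. Within the classic inbred strains they passed for 6 (13.3%) against 19.3%, and for 5 without them, against 18.3%. Within FXLE/LEXF no member passed in limma, while 4.61% of all genes did, and 6 members (of 45) had an unadjusted p under 0.05, against 22.1% of all genes. Read against these shares, the carriers were called no more often than genes at large. Counts by substrate group stand against the same 37.3% of all genes, and groups this small cannot be set apart from it. Without the libraries that stand apart these counts were unchanged but for the outer membrane and little characterised group, where 1 of 7 passed.

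The calls over all strains differed in how they held when the animals of 1 number were left out. With fewer animals, these fits called fewer genes of any kind. Without animals numbered 1, 2 and 3, 15.9%, 14.3% and 29.1% of all genes passed, against 37.3%. In HXB/BXH 8.04%, 9.31% and 8.26% did, against 19.1%. A call lost in them, here and below, is thus not particular to the gene. Slc25a6 and Slc25a43 passed in 3 of 3 such fits, Slc25a18, Slc25a37, Slc25a48 and Slc25a52 in 2, Slc25a45 and Slc25a53 in 1, and Slc25a10, Slc25a12, Slc25a17, Slc25a25, Slc25a29 and Slc25a44 in 0. In HXB/BXH, Slc25a43 passed in 3 of 3, Slc25a6 and Slc25a52 in 2, and Slc25a10, Slc25a37, Slc25a44 and Slc25a48 in 0. In the v7.1 table of reconstructed genes Slc25a12, Slc25a37 and Slc25a43 passed over all strains. Slc25a6, Slc25a10, Slc25a17, Slc25a18, Slc25a25, Slc25a29, Slc25a45 and Slc25a53 did not, and Slc25a44, Slc25a48 and Slc25a52 gave no value there.

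R2 also rises with the number of strains per animal, so its values are set side by side only with those of all genes in the same panel. The median R2 was 0.40 for members and 0.41 for all genes in HXB/BXH, 0.52 and 0.52 in FXLE/LEXF, and 0.45 and 0.45 in the inbred strains. The highest member values were 0.66 for Slc25a6 over all strains, 0.76 for Slc25a43 in HXB/BXH, 0.67 for the folate carrier Slc25a32 in FXLE/LEXF and 0.77 for Slc25a6 in the inbred strains. Of these 4 values, that of Slc25a32 did not pass the test (adjusted p = 0.122 in limma).

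**Figure D2:**
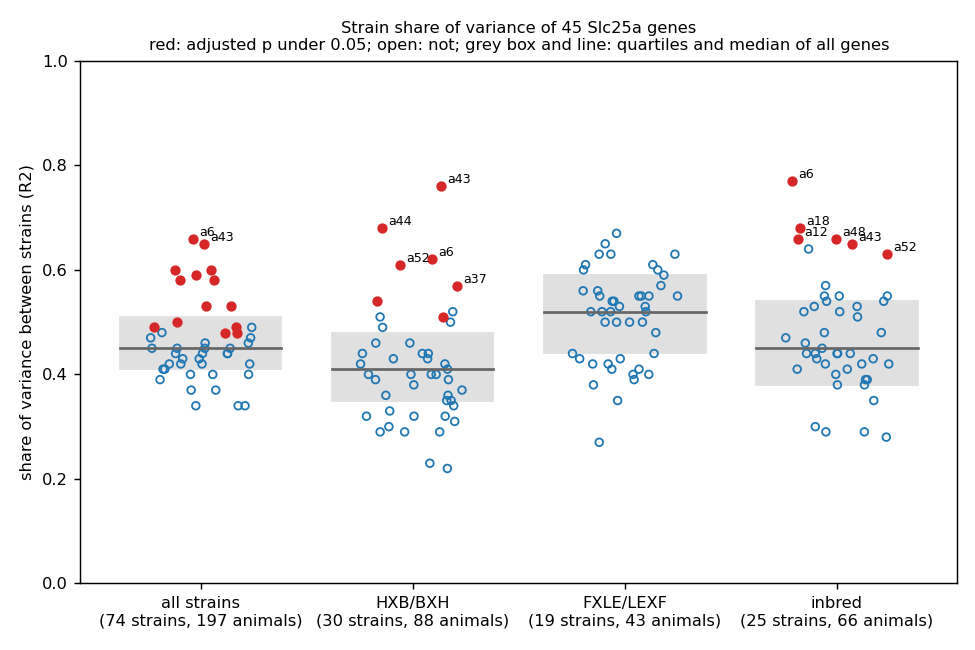
Between-strain share of variance (R2, vertical axis) of the 45 Slc25a genes in each panel. Red points passed an adjusted p of 0.05, open points did not, and the grey box and line give the quartiles and median of all 20859 genes. Members lie around the line for all genes in each panel, and Slc25a43 stands highest in HXB/BXH at 0.76.

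Among the adenine nucleotide and phosphate carriers, 1 of 4 measured members passed over all strains, against 37.3% of all genes. It was Slc25a6, listed as another adenine nucleotide translocase (R2 = 0.66, adjusted p = 1.36e-08 in limma). Its level was 7.80, 7.56 and 7.47 in the HXB27/Ipcv animals and 9.18, 8.70 and 8.62 in the FHH/EurMcwi animals. These strains, picked as the lowest and the highest, had means of 7.61 and 8.83, a 2.33-fold difference, and shared no batch.

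The value of Slc25a6 is uncertain. Reads of near-identical translocase genes and their processed copies can be assigned to one another, and their part in it was not tested. In the v7.1 table of reconstructed genes its strain effect did not pass (R2 = 0.43, adjusted p = 0.189 in limma), and the 30 HXB/BXH strain means there had a Pearson r of 0.15 with those of the RefSeq row. The SD of Slc25a6 over 12 repeat libraries of 1 SHR/OlaIpcv animal was 0.31, larger than its SD of 0.25 among animals of 1 strain. Over 6 repeat libraries of another SHR/OlaIpcv animal it was 0.25. The repeats of an animal came from unlike batches, and the 12 include 1 library marked by liver genes. For Slc25a43, Slc25a48 and Slc25a52 the SD over the 12 was 0.16, 0.16 and 0.14, against 0.17, 0.21 and 0.18 among animals of 1 strain. The genes most like Slc25a6 over the 30 HXB/BXH strain means of the RefSeq table were LOC691309 (r = -0.75), Gstm2 (r = 0.69) and Cidec (r = -0.64). Gstm2 and Cidec lie on other chromosomes than Slc25a6. The same r were -0.78, 0.22 and 0.04 over the 25 inbred strains and -0.16, 0.27 and -0.01 over the 19 FXLE/LEXF strains. Genes most like a member, here and below, were picked from all genes by the size of r in HXB/BXH, so that size is no support by itself. By contrast, the abundant Slc25a3, Slc25a4 and Slc25a5 had R2 of 0.41, 0.46 and 0.42, and none passed over all strains.

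Slc25a4 came nearest to a difference between the progenitors of the HXB/BXH family. Its level was 14.26, 13.92 and 13.91 in the BN-Lx/Cub animals and 13.70 and 13.71 in the SHR/OlaIpcv animals. Every BN-Lx/Cub animal lay above both SHR/OlaIpcv animals. With 3 animals against 2 this is weak, as the animals did not overlap for Slc25a11 and Slc25a47 either (unadjusted p = 0.391 and 0.585 in limma). How often it held over all genes was not taken. The difference in Slc25a4 was 0.32 ± 0.11 (SE), adjusted p = 0.0547 in limma. It passed in 4 of 11 alternatives and ran from 0.20 to 0.59 over them. Those were the fits with animals numbered 2 left out (0.38, adjusted p = 0.0412), with those numbered 3 left out (0.39, adjusted p = 0.0478), with each library centred on its median (0.36, adjusted p = 0.0291) and with batch as a covariate (0.59, adjusted p = 0.00586). It did not pass without animals numbered 1 (0.20, adjusted p = 0.946), without the libraries that stand apart (0.31, adjusted p = 0.062) or in the v5, v6 and reconstructed tables (adjusted p of 0.329, 0.139 and 0.107).

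Of the calcium-regulated ATP-Mg/phosphate carriers, Slc25a25 passed over all strains (R2 = 0.50, adjusted p = 0.0161 in limma), while Slc25a23 and Slc25a24 (both R2 = 0.44) did not. The call of Slc25a25 was lost with animals of any 1 number left out (adjusted p from 0.0685 to 0.433) and in the reconstructed table (R2 = 0.45, adjusted p = 0.175), while the v5 table gave R2 = 0.73. Slc25a25 was at 11.10, 11.27 and 11.31 in the BN-Lx/Cub animals, the lowest strain, and at 11.60 and 11.81 in the 2 animals of HXB2/Ipcv, the highest. These strains were picked by those values. In HXB/BXH, 26 of 30 strain means lay above both progenitor means of 11.23 and 11.33.

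Of the 6 carriers of the malate-aspartate shuttle and of di- and tricarboxylates, Slc25a12 and the dicarboxylate carrier Slc25a10 passed over all strains, against 37.3% of all genes. Slc25a12 had R2 = 0.53 (adjusted p = 0.0114 in limma) on a narrow range, with strain means between 11.93 and 12.27. It was lowest in SHR/OlaIpcv, at 12 and 11.87, and highest in LEXF5/Stm, at 12.25 and 12.29. Its relatives Slc25a13 (citrin, R2 = 0.47), Slc25a11 (the oxoglutarate carrier, 0.37), Slc25a1 (the citrate carrier, 0.42) and Slc25a21 (0.40) did not pass.

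Slc25a12 and Slc25a22 were the 2 of 45 members whose HXB/BXH strain means all lay on 1 side of both progenitors, which held for 0.753% of all genes. Without the libraries that stand apart it held for 1 member, Slc25a12, and for 0.436% of all genes. The BN-Lx/Cub animals were at 11.94, 12.06 and 11.94 and the SHR/OlaIpcv animals at 12 and 11.87, so the progenitors overlapped. For Slc25a12 all 30 recombinant strain means, from 12.01 to 12.25 with a median of 12.12, lay above both progenitor means of 11.98 and 11.93. The same held for 30 of 30 strains in the v5 and v6 tables, which share most of these animals, and for 21 of 30 in the v7.1 reconstructed table, where the other 9 lay between the progenitors. Among the recombinant strains themselves Slc25a12 did not pass (R2 = 0.42, adjusted p = 0.309 in limma). For Slc25a22 the progenitor means were both 11.54 and the 30 recombinant means ran from 11.58 to 12.16. The SHR/OlaIpcv values are averages over 12 libraries of 1 animal and 6 of the other.

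Slc25a10 passed over all strains (R2 = 0.49, adjusted p = 0.0221) and in HXB/BXH (R2 = 0.51, adjusted p = 0.0367 in limma). It was at 8.92, 9.13 and 8.60 in HXB24/Ipcv, the lowest strain, and at 9.53, 9.87 and 9.49 in HXB1/Ipcv, the highest. The SD over 12 repeat libraries of 1 SHR/OlaIpcv animal was 0.34, larger than its SD of 0.21 among animals of 1 strain. Over 6 repeat libraries of another SHR/OlaIpcv animal the SD of Slc25a10 was 0.20. Its strain effect was lost when animals of any 1 number were left out. In HXB/BXH it was also lost with the replicate block (adjusted p = 0.051) and in the v5, v6 and reconstructed tables (adjusted p of 0.436, 0.172 and 0.397).

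Of the 8 genes listed as carriers of glutamate, ornithine, glycine and other amino acids, 4 passed over all strains, against 37.3% of all genes. Slc25a48, a little studied member, varied most among them (R2 = 0.60, adjusted p = 1.95e-05 in limma). It was at 4.71, 4.67 and 5.00 in PVG/Seac and at 5.71, 5.87 and 5.77 in HXB5/Ipcv. These strains, picked as the lowest and the highest, shared no batch. Their means differed 1.99-fold, which for a gene at 5.34 on average is a change at a low level. Its strain effect was found in the v6 table (R2 = 0.55, adjusted p = 0.000522) and not in the v5 table (R2 = 0.29, adjusted p = 0.805 in limma).

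Slc25a44, a carrier of branched-chain amino acids, had a high level and a small strain effect. Its R2 was 0.59 over all strains (adjusted p = 0.000831) and 0.68 in HXB/BXH (adjusted p = 0.00174 in limma). It was at 10.87, 10.93 and 10.89 in HXB21/Ipcv, the lowest strain, and at 11.22, 11.15 and 11.19 in HXB20/Ipcv, the highest. The means of these strains, picked by the same values, differed 1.22-fold. The SD among animals of 1 strain was 0.06, and that over 12 repeat libraries of 1 SHR/OlaIpcv animal was 0.10. Over 6 repeat libraries of another SHR/OlaIpcv animal it was 0.05. The call was lost when animals of any 1 number were left out, with adjusted p from 0.0527 to 0.463 over all strains and from 0.211 to 0.303 in HXB/BXH, and in HXB/BXH of the v5 table (adjusted p = 0.0509). The progenitor means of 11.05 and 10.99 spanned 6 of the 30 recombinant means, with 17 above and 7 below both. The genes most like it over the 30 HXB/BXH strain means were Sec24d (r = 0.72), Lef1 (r = 0.72) and Sfrp2 (r = 0.70), all on chromosome 2 of GRCr8, as Slc25a44 is. Over the 25 inbred strains the same r were -0.17, -0.62 and 0.19, and over the 19 FXLE/LEXF strains 0.08, -0.14 and -0.35. These points share libraries.

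Slc25a18, a glutamate carrier known from astrocytes, had R2 = 0.58 (adjusted p = 0.000224 in limma). It was highest in BDIX/NemOdaMcwi, at 11.67 and 11.73, and lowest in LEXF5/Stm, at 11.13 and 10.91. Slc25a29, a carrier of basic amino acids, passed with R2 = 0.48 (adjusted p = 0.031), its lowest strain being BN-Lx/Cub at 7.52, 8.09 and 8.09. The call of Slc25a29 was lost with animals of any 1 number left out. It was also lost in the v6 and reconstructed tables (adjusted p of 0.0547 and 0.168 in limma), while the v5 table gave R2 = 0.59. The ornithine carriers Slc25a15 (R2 = 0.45) and Slc25a2 (0.40), the glycine carrier Slc25a38 (0.45) and Slc25a22 (0.42) did not pass as genes.

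Slc25a22, the principal mitochondrial glutamate carrier of brain, did vary by strain at the level of 1 of its transcripts. This transcript was singled out after its values had been seen. The matching transcript table holds 45991 RefSeq transcripts, of which 86 belong to 40 of the members, and RSEM, the tool named by the submitters for quantification, divides the reads of a gene among its transcripts by estimation. Of these 86 transcripts, 9 passed over all strains, against 13.9% of all transcripts (7 without the libraries that stand apart, against 13.0%), and 6 in HXB/BXH, against 6.83%. In the inbred strains 3 passed, against 6.07%, and in FXLE/LEXF none, against 1.83%. Between BN-Lx/Cub and SHR/OlaIpcv none passed, against 0.789%.

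The Slc25a22 transcript, 1 of 6 of its gene, had R2 = 0.77 over all strains (adjusted p = 5.79e-16), 0.79 in HXB/BXH (adjusted p = 2.29e-09) and 0.78 in the inbred strains (adjusted p = 1.29e-05), all in limma. Its estimated level was 6.82, 7.29 and 4.61 in the BN-Lx/Cub animals and 1.72 and 1.18 in the SHR/OlaIpcv animals. The difference of 4.79 ± 1.33 (SE) between the progenitors had an adjusted p of 0.0562 in limma (4.74, adjusted p = 0.0589 without the libraries that stand apart). Over its alternatives the difference ran from 2.83 with batch as a covariate to 5.6, and it passed in 1 of 8, with each library centred (adjusted p = 0.0426). Over all animals it ran from -1.38 to 8.87, with an SD of 1.47 among animals of 1 strain.

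In the HXB/BXH family the strain means of this transcript spread from 1.5 to 8.12. The widest gap between neighbouring strains lay between 3.87 and 5.42 and left 15 strains on each side. By the midpoint of the progenitors, 3.85, 14 strains were nearer SHR/OlaIpcv and 16 nearer BN-Lx/Cub, with HXB24/Ipcv just past the midpoint on animals at 7.52, 2.17 and 1.91. Single animals crossed between the sides, from 0.45 to 6.11 in the 14 strains and from 1.91 to 8.87 in the 16.

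In the inbred strains the low level was found in BUF/MnaMcwi, GK/FarMcwi, WKY/NCrl, SHRSP/A3NCrl and SHR/OlaIpcv, at strain means up to 1.45, while the other 20 lay between 4.12 and 6.93. Single animals of those 20 strains were also low, with ACI/SegHsd at 5.21, 6.11 and 1.04 and COP/CrCrl at 7.35 and 1.0. GK/FarMcwi was at -1.38, 0.30 and 0.17, and WKY/NCrl at 1.3, 1.44 and -1.0. SHRSP/A3NCrl was at 1.19 and 1.08, and BUF/MnaMcwi had 1 animal at -0.66. Of these strains WKY/NCrl, SHRSP/A3NCrl and SHR/OlaIpcv are related by descent. In the FXLE/LEXF family the progenitor F344/Stm was at 6.06. LE/Stm was at 5.89 in its 1 animal, the library with the highest liver genes. The recombinant strain means ran from 3.36 to 7.15 apart from LEXF6B/Stm at 1.08.

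The gene-level value of Slc25a22 did not follow the transcript, and could hardly do so. The transcript averaged 4.9 over all animals, against 11.8 for the gene, so it is a small part of the gene's level. The gene-level value averaged 11.79 in the 14 strains nearer SHR/OlaIpcv and 11.80 in the 16 nearer BN-Lx/Cub. Its r with the transcript over the 30 strain means was 0.14. The other 5 transcripts had mean levels from 3.27 to 10.30, and none of them passed over all strains. The strain effect of the transcript passed in all 8 alternatives tried, which were chosen after its values had been seen, with R2 from 0.77 to 0.85 over all strains and from 0.79 to 0.87 in HXB/BXH. Whether a sequence difference between strains alters how reads are assigned to this transcript was not tested.

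**Figure D3:**
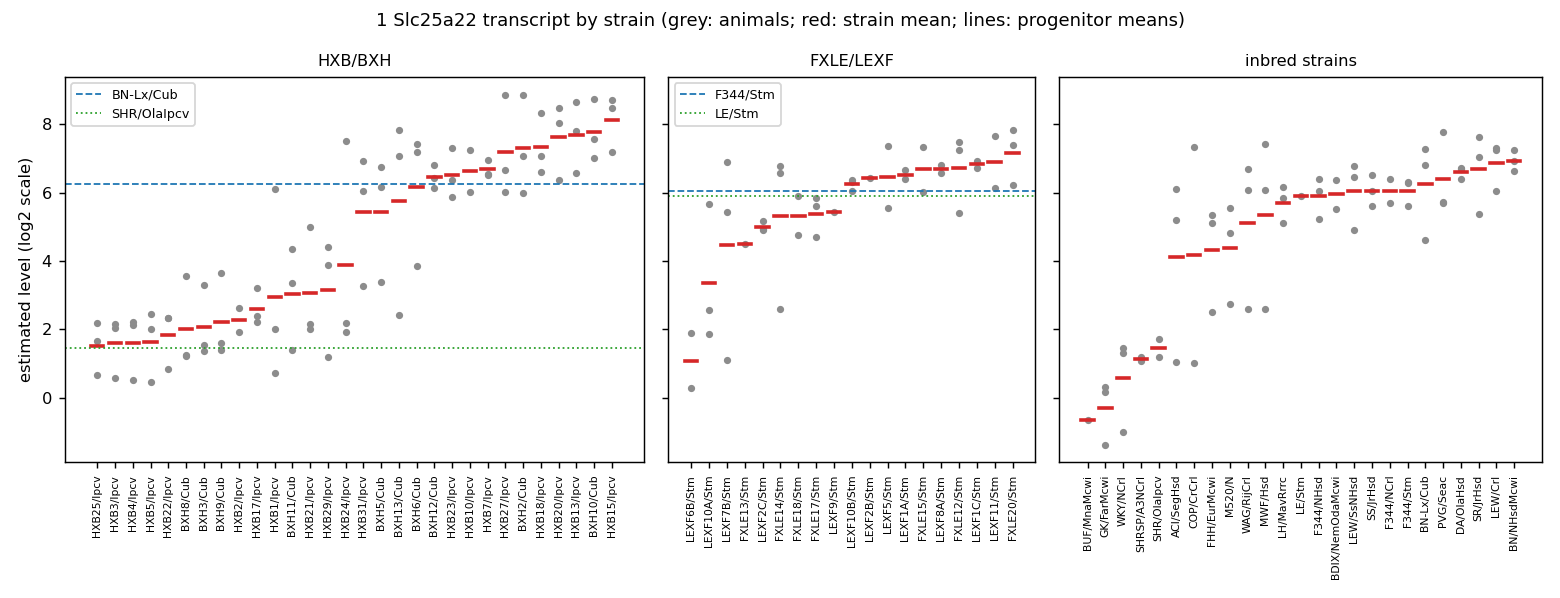
Estimated level of 1 Slc25a22 transcript (log2 scale, vertical axis) by strain, with strains sorted by mean within each panel. Grey points are animals, red bars are strain means, and the dashed and dotted lines are the progenitor means of each recombinant family. HXB/BXH strain means run from 1.5 to 8.12 with the widest gap between 3.87 and 5.42, and 5 inbred strains lie at or below 1.45.

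Slc25a25 also had 1 of its 7 transcripts passing with a larger R2 than the gene, 0.61 over all strains (adjusted p = 3.55e-05) and 0.71 in HXB/BXH (adjusted p = 7.65e-06 in limma). That transcript was lowest in HXB7/Ipcv, at 8.15, 7.96 and 7.5, and highest in LEXF1C/Stm, at 9.69 and 9.58, strains that shared no batch. Slc25a27 likewise passed in 1 of 6 transcripts (R2 = 0.51, adjusted p = 0.0384) and not as a gene (R2 = 0.49, adjusted p = 0.12 in limma).

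The transcript of Slc25a47 had a strain effect that rests on 1 library. Its estimated value was 19.87 in LE/Stm animal 2, the library with the highest mean of liver genes, against a median of 2.61 and a maximum of 7.03 over the 210 libraries not marked by liver genes. It was 6.91 in HXB10/Ipcv animal 1, 2.98 in BXH6/Cub animal 3 and 1.75 in the marked library of SHR/OlaIpcv animal 1. The gene row of the same LE/Stm library was 2.32. Over all strains R2 was 0.79 (adjusted p = 2.65e-17), without LE/Stm animal 2 alone it was 0.36 (adjusted p = 0.707), and without all the libraries that stand apart it was 0.38 (adjusted p = 0.617 in limma). It was the only member transcript that passed between F344/Stm and LE/Stm, against 0.317% of all transcripts, and the part of liver RNA in it was not tested.

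Among the 10 measured carriers of carnitine, coenzyme A, S-adenosylmethionine, NAD and nucleotides, Slc25a17 and Slc25a52 passed over all strains, against 37.3% of all genes. Slc25a17, a peroxisomal carrier of coenzyme A and related cofactors, had R2 = 0.53 (adjusted p = 0.0112 in limma). It was at 10.38, 10.26 and 10.36 in HXB17/Ipcv, the lowest strain, and at 10.62, 10.63 and 10.73 in BXH9/Cub, the highest. HXB17/Ipcv animal 2, the lowest of these, is 1 of the libraries with low Y-linked genes. Without the libraries that stand apart, R2 of Slc25a17 was 0.52 (adjusted p = 0.0241).

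Slc25a52 had R2 = 0.60 (adjusted p = 2.59e-05), and 0.61 in HXB/BXH (adjusted p = 0.000673 in limma). It was at 4.23, 4.28 and 4.15 in M520/N, the highest strain, and at 3.05, 3.28 and 3.16 in HXB3/Ipcv, the lowest. The means of these strains differed 2.08-fold, and they shared no batch. Reads of Slc25a52 may be shared with its near copy Slc25a51, which has no row, so its level is uncertain. The genes most like Slc25a52 over the 30 HXB/BXH strain means were Cdk2ap1 (r = -0.71), Dync1i1 (r = -0.70) and LOC102552777 (r = 0.69), all on other chromosomes of GRCr8. The same r were -0.07, -0.51 and 0.04 over the 25 inbred strains and 0.66, -0.23 and 0.34 over the 19 FXLE/LEXF strains. The others did not pass, among them the carnitine-acylcarnitine carrier Slc25a20 (R2 = 0.48, adjusted p = 0.0701), the pyrimidine nucleotide carriers Slc25a33 (0.41) and Slc25a36 (0.39), the S-adenosylmethionine carrier Slc25a26 (0.43), Slc25a32 (0.45), and Slc25a16 (0.43) and Slc25a42 (0.45), both linked to coenzyme A.

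Of the 4 iron and glutathione carriers only Slc25a37 (mitoferrin-1), which imports iron for haem synthesis in red cell precursors, passed over all strains (R2 = 0.58, adjusted p = 0.00012) and in HXB/BXH (R2 = 0.57, adjusted p = 0.00488 in limma). The HXB/BXH call was lost with animals of any 1 number left out (adjusted p from 0.0786 to 0.199) and in the reconstructed table (adjusted p = 0.169), and the call over all strains without animals numbered 2 (adjusted p = 0.056). Its relative Slc25a28 (mitoferrin-2, R2 = 0.42) and the glutathione carriers Slc25a39 (0.40) and Slc25a40 (0.34) did not pass. The SD of Slc25a37 over 12 repeat libraries of 1 SHR/OlaIpcv animal was 0.17, larger than its SD of 0.13 among animals of 1 strain. Over 6 repeat libraries of another SHR/OlaIpcv animal it was 0.16. Slc25a37 was at 7.89, 7.96 and 8.10 in the BN-Lx/Cub animals and at 8.37 and 8.27 in the SHR/OlaIpcv animals. The difference of -0.34 ± 0.12 (SE, BN-Lx/Cub minus SHR/OlaIpcv) had an adjusted p of 0.092 in limma. It passed in 0 of 10 alternatives, was -0.32 without the libraries that stand apart (adjusted p = 0.102), and turned to 0.12 with batch as a covariate (adjusted p = 0.669).

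The level of Slc25a37 moved with red blood cell transcripts. The genes whose 30 HXB/BXH strain means were most like it were Tent5c (r = 0.82), Alas2 (r = 0.80), the erythroid enzyme of haem synthesis, and the globin gene Hbq1b (r = 0.79), all on other chromosomes than Slc25a37. Over the 25 inbred strains these r were 0.35, 0.62 and 0.41, and over the 19 FXLE/LEXF strains 0.37, 0.14 and -0.34. With the mean of 5 red cell genes (Hba-a1, Hba-a2, Hbb, Hbb-bs and Alas2) r was 0.76 and Spearman's rho 0.76 over the 30 strains, and r was 0.69 over 28 strains without the 2 farthest from the median of the red cell mean. The single genes had r from 0.70 to 0.80. The red cell mean ran from 11.41 in BXH13/Cub, where Slc25a37 was 7.84, to 13.03 in BXH5/Cub, where it was 8.33.

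No other member followed the red cell genes as closely in HXB/BXH, where the next highest r was 0.52 for Slc25a39, and Slc25a28 had 0.21. In the other panels r for Slc25a37 was 0.58 over the 25 inbred strains and 0.03 over the 19 FXLE/LEXF strains. In SHR/OlaIpcv the red cell mean was 13.11, the highest of all strains, and in BN-Lx/Cub it was 11.79. Points share libraries, and fewer red cells and less RNA per cell cannot be told apart in bulk tissue. The part of blood left in the tissue in the strain effect of Slc25a37 was not tested.

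**Figure D4:**
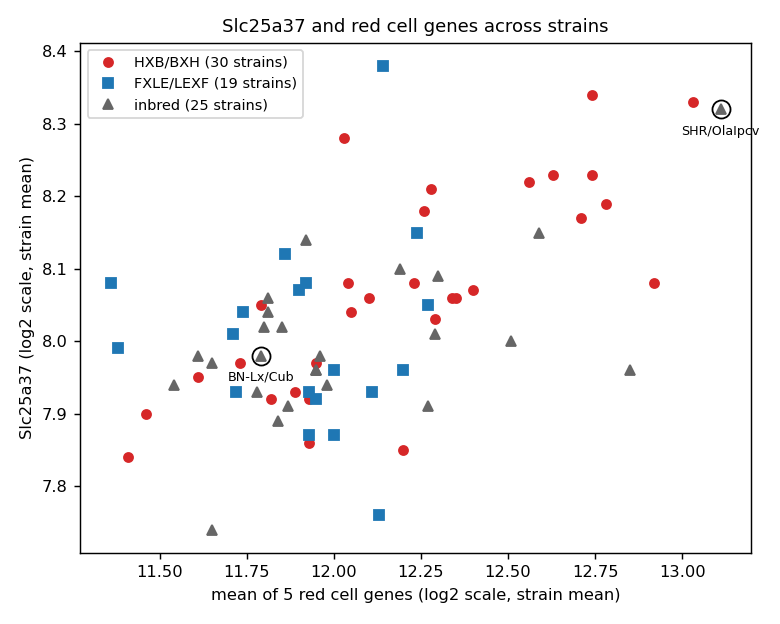
Strain means of Slc25a37 (vertical axis) against the mean of 5 red cell genes (horizontal axis), both on the log2 scale, coloured by panel, with the HXB/BXH progenitors ringed. HXB/BXH strains run from lower left to upper right (r = 0.76, 30 strains), and FXLE/LEXF strains show no such slope (r = 0.03, 19 strains).

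None of the 3 uncoupling-protein-like carriers passed over all strains, against 37.3% of all genes. Their R2 was 0.44 for Slc25a14, 0.49 for Slc25a27 and 0.46 for Slc25a30, at levels of 10.28, 10.07 and 9.42.

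Of the 7 outer membrane and little characterised carriers, Slc25a43, Slc25a45 and Slc25a53 passed over all strains, against 37.3% of all genes. Without the libraries that stand apart only Slc25a43 did, against 34.5%. Slc25a43, an X-linked carrier, had R2 = 0.65 over all strains (adjusted p = 6.16e-08) and 0.76 in HXB/BXH (adjusted p = 1.53e-08 in limma), the largest of any member in that family. It was at 4.43, 4.75 and 4.78 in the BN-Lx/Cub animals and at 4.28 and 4.20 in the SHR/OlaIpcv animals. The mean was higher in BN-Lx/Cub, by 0.41 ± 0.16 (SE), with an adjusted p of 0.114 in limma. In the v7.1 table of reconstructed genes the difference was 0.84 ± 0.24 (SE), adjusted p = 0.0308. It was 0.08 in the v5 table (adjusted p = 0.668), 0.34 in the v6 table (adjusted p = 0.21) and 0.43 without the libraries that stand apart (adjusted p = 0.0925), and passed in 1 of 10 alternatives.

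Among related inbred strains BN/NHsdMcwi was at 4.95, 4.38 and 4.82, SHRSP/A3NCrl, the lowest strain, at 4.11 and 4.21, and WKY/NCrl at 4.3, 4.68 and 4.07. Single animals of BN/NHsdMcwi and WKY/NCrl overlapped. In HXB/BXH the strain means ran from 4.19 in BXH13/Cub (4.06, 4.46 and 4.05) to 4.88 in HXB24/Ipcv (4.73, 5.05 and 4.85). By the midpoint of the progenitors 18 strains were nearer BN-Lx/Cub and 12 nearer SHR/OlaIpcv, with 17 means between the progenitors, 9 above both and 4 below both. A mixture model found a single cluster of strain means. In FXLE/LEXF, Slc25a43 did not pass (R2 = 0.38, adjusted p = 0.683 in limma), with strain means from 4.34 to 4.82.

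Slc25a43 was the only one of the 14 called members that passed over all strains in every one of its alternatives, 10 of 10. Its R2 was 0.68 in the v5 table, 0.63 in the v6 table and 0.64 in the v7.1 reconstructed table, and in HXB/BXH it was 0.69 to 0.83 over the 10 alternatives. The genes most like it over the 30 HXB/BXH strain means were LOC100911253 (r = 0.84), LOC100360218 (r = -0.79) and LOC120099378 (r = 0.79), of which the first and the last lie on the X chromosome of GRCr8. The same r were 0.05, 0.11 and 0.25 over the 19 FXLE/LEXF strains and 0.34, -0.44 and 0.41 over the 25 inbred strains. Slc25a5, its neighbour among the members on the X chromosome, had r = 0.13 with it over the 30 HXB/BXH strain means and did not pass in HXB/BXH (R2 = 0.35, adjusted p = 0.596 in limma).

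**Figure D5:**
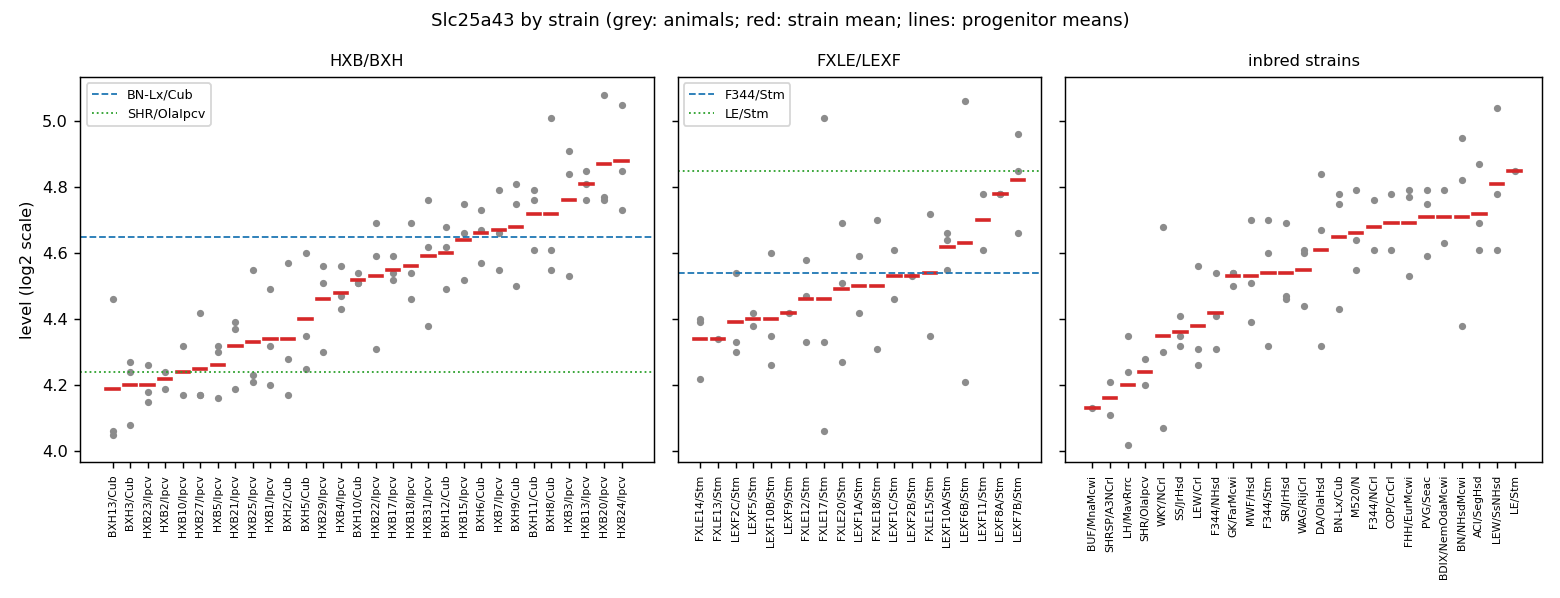
Level of Slc25a43 (log2 scale, vertical axis) by strain, with strains sorted by mean within each panel. Grey points are animals, red bars are strain means, and the dashed and dotted lines are the progenitor means. HXB/BXH strain means run from 4.19 to 4.88 without a wide gap, past both progenitor lines.

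The promoters of these X-linked neighbours are shown because one gene passed for strain and the other did not, and that of Slc25a4 because it is the most abundant member. Each runs from 250 bases before to 50 bases after the annotated start in RefSeq on GRCr8, on the plus strand, at X:120842931-120843230 for Slc25a43, X:120897366-120897665 for Slc25a5 and 16:52805271-52805570 for Slc25a4. Capitals mark CCGGAAG, or CTTCCGG on the other strand, a sequence read by ETS-family factors such as GABPA, a regulator of mitochondrial genes.
Slc25a43: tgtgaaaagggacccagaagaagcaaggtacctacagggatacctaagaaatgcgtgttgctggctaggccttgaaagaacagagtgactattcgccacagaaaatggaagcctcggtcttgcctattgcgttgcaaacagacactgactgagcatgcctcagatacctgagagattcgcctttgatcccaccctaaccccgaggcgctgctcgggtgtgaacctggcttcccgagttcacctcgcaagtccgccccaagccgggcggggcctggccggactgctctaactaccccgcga
Slc25a5: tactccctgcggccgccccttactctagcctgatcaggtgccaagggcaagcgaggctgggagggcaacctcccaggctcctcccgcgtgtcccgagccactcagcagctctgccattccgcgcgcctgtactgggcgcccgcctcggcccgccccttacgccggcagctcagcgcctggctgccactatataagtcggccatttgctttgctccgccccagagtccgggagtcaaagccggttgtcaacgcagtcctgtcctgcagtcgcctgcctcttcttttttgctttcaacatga
Slc25a4: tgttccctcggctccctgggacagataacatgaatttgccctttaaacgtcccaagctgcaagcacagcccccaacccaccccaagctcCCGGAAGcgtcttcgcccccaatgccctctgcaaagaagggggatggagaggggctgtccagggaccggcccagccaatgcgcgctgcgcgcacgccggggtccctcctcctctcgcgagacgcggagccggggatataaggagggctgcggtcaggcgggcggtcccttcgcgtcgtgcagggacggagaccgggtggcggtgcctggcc
The motif was found once in the Slc25a4 promoter and not in the other promoters shown. It was present in 6 of the 37 member promoters matched by symbol (16.2%) and in 13.5% of 14875 promoters of the same length. These sequences are those of the reference strain and say nothing of differences between strains.

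Slc25a45 passed over all strains with R2 = 0.49 (adjusted p = 0.0284 in limma), at 4.88, 4.81 and 4.83 in LEXF2C/Stm, the lowest strain, and at 5.45, 5.55 and 5.25 in HXB3/Ipcv, the highest. It was not past the threshold in the v5, v6 and reconstructed tables, with adjusted p of 0.207, 0.131 and 0.252, nor without the libraries that stand apart (R2 = 0.48, adjusted p = 0.050). Slc25a53, X-linked, passed narrowly with R2 = 0.48 (adjusted p = 0.0478), and not without those libraries (R2 = 0.47, adjusted p = 0.0673) or with each library centred on its median (R2 = 0.46, adjusted p = 0.085). Slc25a46, an outer membrane protein linked to mitochondrial fission, had R2 = 0.37 and did not pass, nor did Slc25a34 (0.47), Slc25a35 (0.44) and Slc25a47 (0.34).

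The progenitors of each recombinant family were also compared with one another. Such a comparison does not settle whether the recombinant strains differ among themselves. Between BN-Lx/Cub (3 animals) and SHR/OlaIpcv (2 animals) no member passed in limma, while 4.51% of all genes did, and 8 members had an unadjusted p under 0.05, against 19.2% of all genes. None passed without the libraries that stand apart, against 5.42% of all genes, while 16 passed with batch as a covariate, where 31.0% did. Further, 2 passed in the v5 table (4.37% of all genes), 1 with libraries centred (4.13%) and 1 in the reconstructed table (2.63%). With animals numbered 2 or 3 left out, 1 passed in each fit (3.91% and 6.19%). The median absolute difference was 0.13 for members and 0.14 for all genes. Between F344/Stm (3 animals) and LE/Stm (1 animal) none passed, against 0.796% of all genes, and 8 had an unadjusted p under 0.05, against 12.8% of all genes. The LE/Stm animal is the library with the highest liver genes, and its spread was assumed to be that of the other strains.

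Normal mixtures fitted to the strain means gave more than 1 cluster for 4 of the 45 members in HXB/BXH (Slc25a5, Slc25a14, Slc25a29 and Slc25a42), against 11.7% of all genes. In FXLE/LEXF they did so for 3 members (Slc25a17, Slc25a32 and Slc25a40), against 14.7%. None of these members passed a strain effect within its family, so that the clusters describe the strain means only.

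Pairs of carriers spread widely in r across strains. Over the 74 strain means the highest r between members were 0.76 for Slc25a22 with Slc25a42 and 0.75 for Slc25a22 with Slc25a29, and the lowest was -0.67 for Slc25a1 with Slc25a36. The median over all pairs was 0.01. These points share libraries and their scaling.

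Other genes of the same pathways were read against the same 37.3% of all genes. Of 6 carriers and pyruvate carrier subunits with other symbols 2 passed over all strains, with the highest R2 for the uncoupling protein Ucp3 (0.70, adjusted p = 8.4e-11 in limma) at a level of 1.99. Of 6 malate-aspartate and glycerol phosphate shuttle enzymes 2 passed, both of the glycerol phosphate shuttle, Gpd2 and Gpd1, the latter with R2 = 0.67 (adjusted p = 7.85e-09) and strain means from 11.15 in LEXF6B/Stm to 11.98 in BXH12/Cub. Of 15 genes of outer membrane pores and carrier import 1 passed, the lipid kinase and import subunit Agk (R2 = 0.50, adjusted p = 0.0374). Of 8 genes of mitochondrial biogenesis and content 1 passed, the coactivator Ppargc1a (R2 = 0.48, adjusted p = 0.0468). Without the libraries that stand apart the counts in these lists were 3, 2, 0 and 1, against 34.5% of all genes, with Agk no longer past the threshold and Mtch1 past it. The median R2 of these lists was 0.42 to 0.44, near the 0.45 of all genes.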

How the data were processed

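Whole-brain total RNA libraries were compared between inbred rat strains. For the v5 tables the authors used Cutadapt for trimming and Bowtie 2 to take out ribosomal reads, then aligned to strain-specific rn6 genomes with HISAT2, estimated counts with RSEM, removed 1 factor of unwanted variation and applied the regularized log of DESeq2. The deposited values were read as log2 from their range (the v7.1 gene table holds 5 values over 30), and counts were not used here, so depth is unknown and the number of animals limits the precision. For the tables of v6 and v7.1 the steps and the genome build are not given in the sources used here, apart from the tools in the submitters' processing notes (Cutadapt 1.9.1, Bowtie 2 2.3.4.3 and 2.4.5, HISAT2 2.1.0 and 2.2.1, StringTie 1.3.5 and 2.2.1, RSEM 1.3.1 and 1.3.3, DESeq2). Removing a factor shared by many genes can take away variance between batches and, where strains and batches overlap in part, between strains.

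From the v7.1 RefSeq gene table, libraries of 1 strain with the same animal number were averaged to 1 animal. Strain effects over all 20859 genes were tested with limma 3.58.1 in R 4.3.3 (moderated F-test on strain, Benjamini-Hochberg adjustment over all features, 5% false discovery rate), over all strains and within each panel. Progenitors were compared by limma contrasts in the fit over all animals, without pseudocount or filter. Clusters of strain means were fitted with mclust 6.1.1 (1 to 3 clusters of equal variance, chosen by BIC). The fit was tested on simulated data. Tables were drawn up with Python 3.11.15 and pandas 2.3.3. The transcript table was fitted the same way. The v5, v6 and v7.1 reconstructed gene tables were alternatives, each fitted on its own. Where 2 animals of a strain are compared, nothing in the labels says more of their origin than the strain and animal number.

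Animals of the same number in different strains had a median r of 0.012 over 5927 pairs, against -0.007 for unlike numbers, with 32.9% of same-number pairs over 0.1. Pairs in the same batch had a median r of -0.022. The measure thus showed no shared batch either, and cannot settle whether the numbers pair the animals. Named were the 5 highest (and Slc25a23, level with the last of them) and 5 lowest members by mean, the 12 called members with the highest R2, members called between progenitors, and for the 5 with the highest R2 in HXB/BXH the 3 genes most like them, with extreme strains taken among those with 2 or more animals. Other genes were named after their values were seen, including the Slc25a22 transcript. The members and lists were chosen with earlier results of these data known, and so was the rule for libraries that stand apart (liver mean above 12 or Y-linked mean below 9.7). A total of 2 table columns could not be matched to a sample and were left out, as were 73 spike-ins, the deposited strain means, the v5 and v6 transcript and reconstructed tables and the v7.1 reconstructed transcripts. Genotypes were not used here, and 1 member, counted in every total, is not reported here by name.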

Additional observations from a re-analysis of the deposited data

How the results depend on the processing

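Shares in parentheses are of all features in the same fit. Members passing over all strains numbered 14, and 30 with the batch characteristic as a covariate (58.0%), 27 of 38 in the v5 table (63.6%), 4 of 36 in the v7.1 reconstructed table (20.4%), 6 of 31 among genes whose mean exceeded the median gene's (34.3%), and 5 to 9 with animals of 1 number left out (14.3 to 29.1%). Within HXB/BXH 7 passed, and 17 (32.1%), 1 (12.7%) and 2 (14.7%) with batch, in the reconstructed table and above the median level, 3 of 39 in the v6 table (16.3%) and 2 to 3 with 1 animal number left out (8.04 to 9.31%). Within FXLE/LEXF none passed, and 8 of 39 in the v6 table (15.5%) and 0 to 1 with 1 number left out (0.345 to 6.52%). Within the inbred strains 6 passed, and 13 (34.4%), 1 (8.31%) and 2 (12.2%) in the v5 table, in the reconstructed table and above the median level, and 1 to 5 with 1 number left out (5.75 to 11.5%). Between BN-Lx/Cub and SHR/OlaIpcv none passed, and 16 with batch (31.0%), 2 in the v5 table (4.37%), 1 with libraries centred (4.13%), 1 in the reconstructed table (2.63%) and 0 to 1 with 1 number left out (0.992 to 6.19%). With batch, the SD of this difference over genes went from 0.27 to 0.59 and its median SE from 0.15 to 0.24. The cause was not tested. Between F344/Stm and LE/Stm none passed, and 2 in the v5 table (3.69%). The median R2 of members was 0.45, and 0.51 with batch, 0.48 in the v5 table and 0.57 to 0.62 with 1 number left out, where fewer animals per strain raise R2 for all genes alike (0.59 to 0.63). Members with more than 1 cluster numbered 4 in HXB/BXH and 3 in FXLE/LEXF, and 1 and 0 under a required gain in BIC above 6. With 1 number left out they numbered 1 to 4 and 5 to 10. These alternative cluster fits were made for members only. Without a share of all genes, their counts cannot be read as a result about the members. Member transcripts passing numbered 9 over all strains and 6 in HXB/BXH, 21 over all strains with batch (21.4%), and 2 to 7 (4.76 to 7.66%) and 2 to 5 (2.66 to 2.97%) with 1 number left out. These transcript alternatives were chosen after seeing the data.

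With the replicate block (animal number as a covariate) 15 members passed over all strains (38.6%), 6 in HXB/BXH (19.1%), 0 in FXLE/LEXF (4.36%), 5 in the inbred strains (17.4%) and 0 between either pair of progenitors (1.97% and 0.820%), the median R2 was 0.45, and 8 (14.1%) and 6 (6.67%) transcripts passed. Of 138 refits of the R2 of the 14 called members over all strains, 96 stayed past 5%. All 10 did for Slc25a43 and none of the 3 that left out 1 animal number did for Slc25a10, Slc25a12, Slc25a17, Slc25a25, Slc25a29 and Slc25a44. FXLE/LEXF could not be fitted in the v5 table, and F344/Stm minus LE/Stm gave no value without animals numbered 2 or without the libraries that stand apart. Depth is unknown, so counting error at low levels could not be given.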
